A study of Mus musculus with 18 samples.

Results

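Mitochondrial ribosomal proteins were taken as the genes of the expression table whose symbol starts with Mrpl or Mrps followed by a number, and 76 of the 23228 genes listed met that rule. The mitochondrial ribosome translates the few messages encoded by mitochondrial DNA, all of which make subunits of the respiratory chain and ATP synthase. Its proteins are encoded in the nucleus, made in the cytosol and imported, so that each subunit has to be supplied in step with the ribosomal RNAs transcribed inside the organelle. The small subunit reads the message and the large subunit joins amino acids. Some proteins of each subunit have bacterial homologs and others are specific to mitochondria.

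Levels were measured by RNA sequencing in mouse embryos of the ICR strain, in 1 pooled sample of each of 2 tissues. The first was GFP-positive cells sorted from trypsin-dissociated E12.5 neural tubes of embryos labelled as wild type that carried 2.3Ptf1a::GFP, a transgene whose GFP is driven by a beta-globin basal promoter behind the 2.3 kb autoregulatory enhancer of Ptf1a, a transcription factor gene. The second was whole E15.5 pancreas of wild-type embryos, unsorted, with acinar, endocrine, duct, mesenchymal, vascular and blood cells together. The labels name 2 libraries for each tissue, and the table holds 1 value per gene and tissue, in FPKM (a count of fragments divided by transcript length and by the library's mapped fragments), so no value has a replicate error and no difference was tested. Tissue, stage, sorting and RNA extraction kit cannot be told apart in this comparison, and neither can library preparation, since the labels list an mRNA-seq protocol for both tissues and a TruSeq protocol for pancreas. In bulk samples, fewer cells of a type and less RNA per cell cannot be told apart either.

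The 2 samples carried the markers of their tissues. All 8 neural tube markers were at least 4 times higher in neural tube and all 8 acinar markers were at least 4 times higher in pancreas, with Lbx1 listed at 0 in pancreas and Prss2 listed at 0 in neural tube. Of the 8 mesenchymal, endothelial and immune markers, 7 were tested and all 7 were at least 4 times higher in pancreas. Among red cell markers, the adult globin Hba-a1 was at 587 FPKM in neural tube against 14315 in pancreas, and the embryonic globin Hba-x at 481 FPKM in neural tube against 33.6 in pancreas. From the lowest steps of the values, depth was about 1.82 times greater in pancreas, and the members held an estimated 198 to 3657 fragments each in neural tube and 523 or more in pancreas. The 8 mesenchymal, endothelial and immune markers summed to 17.1 FPKM in neural tube against 730 FPKM in pancreas, and the part of such cells in the differences described here was not tested.

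All 76 genes were expressed in both samples, with similar shares of all FPKM. Levels ran from 4.01 FPKM (Mrpl35) to 158 FPKM (Mrps21) in neural tube, and from 6.91 FPKM (Mrpl19) to 197 FPKM (Mrps21) in pancreas, with medians of 26.8 FPKM in neural tube against 36.7 FPKM in pancreas. Mrpl19 shares 36% of its annotated exon bases with AW146020 on the opposite strand. Summed, the 76 genes made up 0.537% of the neural tube total and 0.521% of the pancreas total. The order of levels was largely shared: across the 76 genes, Pearson's r of log2(FPKM + 1) between the samples was 0.76 and Spearman's rho 0.71, against 0.38 and 0.36 across the 9657 genes with a mean of at least 5 FPKM, which are called tested below. These correlations are across genes, which share the libraries and are not replicates.

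Of the 76 genes, 55 had levels within 2 times of each other in the 2 samples, 1, Mrpl34, was at least 2 times higher in neural tube and 20 were at least 2 times higher in pancreas. Over all genes tested 54.2% were within 2 times, 22.5% higher in neural tube and 23.2% higher in pancreas, so the members' share higher in neural tube (1.32%) was below that of all genes while their share higher in pancreas (26.3%) was near it. Differences are log2(FPKM + 1) in neural tube minus the same in pancreas, a scale that slightly understates those of low genes. None of the 76 differed by 4 times, whereas 10.0% of all genes tested were at least 4 times higher in neural tube and 10.6% in pancreas. The interquartile range of the differences was 0.91 for the members and 1.78 for all genes tested. A range narrower than that of all genes was not particular to the members. Among the related lists described below it ran from 0.38 (mitochondrial translation factors) to 1.49 (respiratory complexes II to IV). The subunits without the Mrp name, translation factors and mitochondrial tRNA synthetases also had 0 genes at 4 times. So did the lists for ribosome assembly, mitochondrial DNA maintenance and transcription, and import. By contrast, 14 cytosolic ribosomal proteins, 1 complex I gene, 2 of complexes II to IV and 1 ATP synthase gene were at least 4 times higher in pancreas. Among regulators of nuclear genes for mitochondria, 1 was so in neural tube.

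The median difference of the 76 genes was -0.56, toward pancreas, against 0.02 for all genes tested, and 60 of the 76 lay below the median of all genes, but the sign of the members' median depends on the scale. It was 0.04 once the samples were rescaled to equal totals of FPKM, which moved the median of all genes to 0.60, and -0.21 with totals equalised without the 50 highest genes of each sample, which moved it to 0.35. Upper quartile scaling moved it to -0.08, and the members' median to -0.66. Each of these scalings applies 1 factor to all genes of a sample, so it moves the members and all genes together. That the members' median stayed below that of all genes was thus set in advance by the deposited values. After the correction for length and GC given below, which can change that gap, the medians were -0.17 for the members and 0.02 for all genes. Of the 76 genes, 59 lay below 0 as deposited and 36 with equal totals. On the scale of equal totals 65 were within 2 times (48.0% of all genes tested), 6 of the 76 genes were at least 2 times higher in neural tube (38.8% of all genes tested) and 5 in pancreas (13.1%). Without the 50 highest genes of each sample 61 were within 2 times (52.1% of all genes), 4 higher in neural tube (31.2%) and 11 in pancreas (16.8%). At a threshold of 1.5 times on the deposited scale, 4 were higher in neural tube (32.6% of all genes), 36 in pancreas (32.3%) and 36 within it (35.1%).

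**Figure D1:**
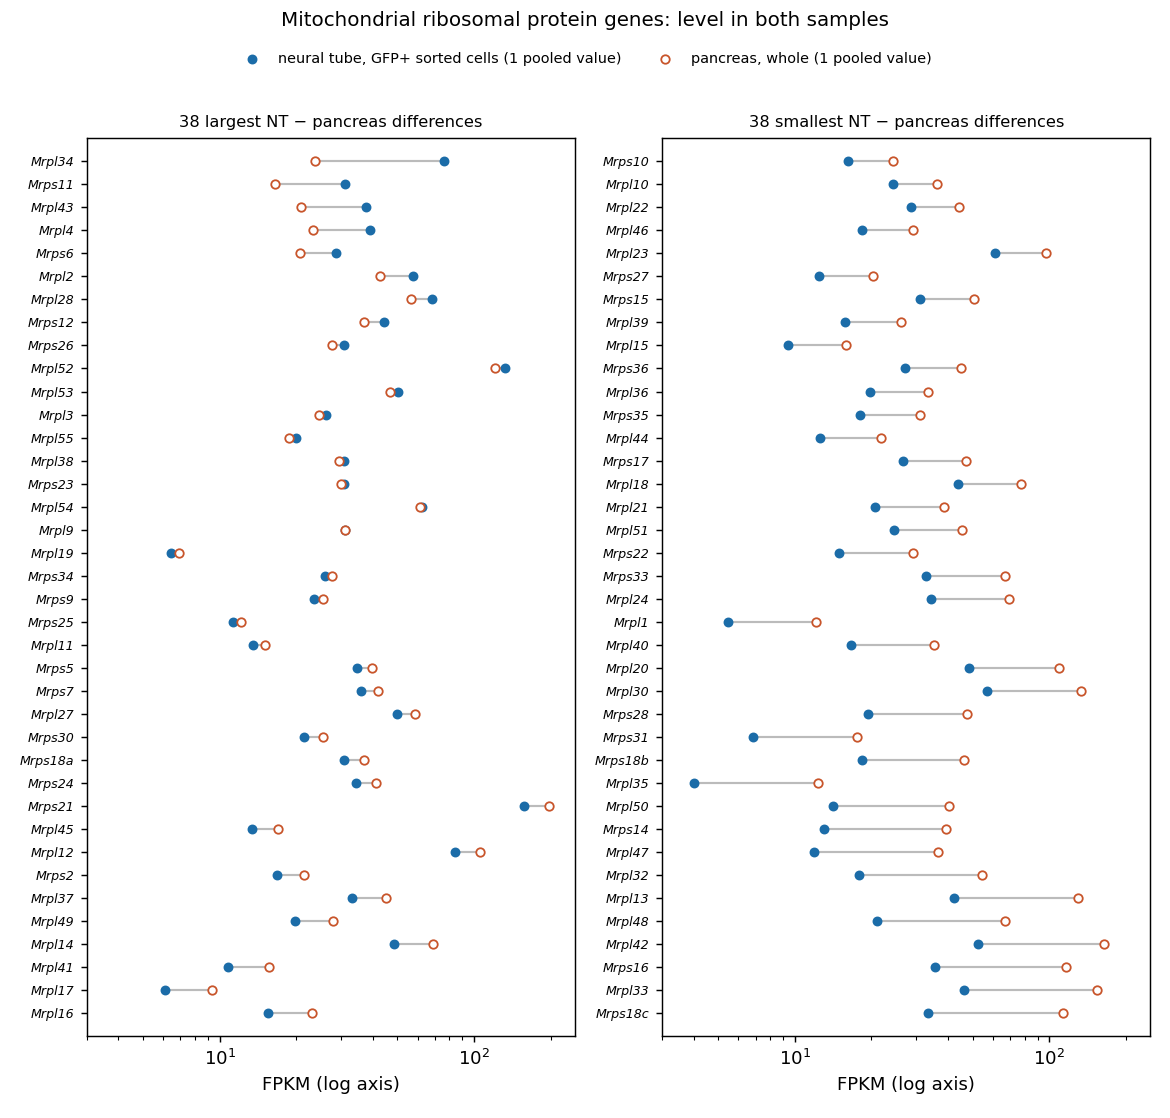
Level of each of the 76 mitochondrial ribosomal protein genes in FPKM (log axis), with filled points for sorted GFP-positive neural tube cells and open points for whole pancreas, 1 pooled value each, ordered by the log2 difference. Mrpl34 at the top left is the only gene at least 2 times higher in neural tube as deposited, and the 20 at least 2 times higher in pancreas fill the lower part of the right panel.

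Small subunit proteins with bacterial homologs differed little at the median (-0.33 for 16 genes). Of these, 0 were at least 2 times higher in neural tube (22.5% of all genes tested) and 4 in pancreas (23.2%). The median turned to 0.28 on the scale of equal totals and to 0.02 without the 50 highest genes. Mrps18c, a homolog of bacterial S18, had 33.4 FPKM in neural tube against 113 FPKM in pancreas, a difference of -1.73 that is the lowest of the 76. Mrps16, a protein whose loss causes mitochondrial disease in humans, had 35.5 FPKM in neural tube against 116 in pancreas (-1.68). Mrps14, of the subunit head, had 13.0 FPKM in neural tube against 39.4 in pancreas (-1.53), and Mrps28 19.4 in neural tube against 47.4 in pancreas (-1.24). At the other end, Mrps11, a platform protein, had 31.3 FPKM in neural tube against 16.6 in pancreas (0.88), and Mrps6 28.7 in neural tube against 20.7 in pancreas (0.46). Mrps6 shares 43.8% of its annotated exon bases with Slc5a3 on the same strand, so its value is uncertain.

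Most other members of this class had close values in the 2 samples. Mrps21, the most abundant member in both samples, had 158 FPKM in neural tube against 197 in pancreas (-0.32). Mrps12, a homolog of the bacterial decoding centre protein S12, had 44.3 FPKM in neural tube against 36.8 in pancreas (0.26). Mrps7, which binds the small ribosomal RNA in the head, had 36.1 FPKM in neural tube against 41.9 in pancreas (-0.21). Mrps2, Mrps5, Mrps9 and Mrps24 differed by -0.34 to -0.10, and Mrps10, Mrps15 and Mrps17 by -0.80 to -0.56.

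The 10 small subunit proteins specific to mitochondria had a median of -0.71, with 3 at least 2 times higher in pancreas (23.2% of all genes tested). Mrps18b had 18.4 FPKM in neural tube against 46.3 in pancreas (-1.29), and Mrps31 6.83 in neural tube against 17.5 in pancreas (-1.24). Mrps33 lay just inside the threshold at 32.9 FPKM in neural tube against 67.0 in pancreas (-1.004, but 0.29 after the correction for length and GC given below), and Mrps22, mutated in human mitochondrial disease, just outside it at 14.9 FPKM in neural tube against 29.1 in pancreas (-0.93). Mrps27, an RNA-binding pentatricopeptide repeat protein, had 12.4 FPKM in neural tube against 20.3 in pancreas (-0.67), and Mrps35 differed by -0.75. Mrps23, Mrps25, Mrps26 and Mrps34 lay between -0.10 and 0.16. Mrps25 shares 53.7% of its exon bases with Nr2c2 on the opposite strand and Mrps34 shares 63.4% with Mapk8ip3 on the opposite strand, and the sources used here do not state whether reads were counted by strand. Mrps34 also shares 37% with Nme3 on the same strand, so its value is uncertain either way.

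The 3 relatives of bacterial S18, which take different places in the mitochondrial ribosome, were not alike as deposited. Only Mrps18c was counted among the bacterial homologs here, and its diverged paralogs Mrps18a and Mrps18b among the proteins specific to mitochondria. Mrps18a, which despite its name sits in the large subunit, had 30.9 FPKM in neural tube against 37.0 in pancreas (-0.25). Its paralogs Mrps18b and Mrps18c were 2.52 and 3.39 times as high in pancreas as in neural tube as deposited, but both were within 2 times after the correction for length and GC (-0.60 and -0.44, beside 0.11 for Mrps18a), and Mrps18b also with equal totals (-0.68). Mrps18b shares 30.5% of its exon bases with the noncoding gene Gm16279 on the opposite strand. In neural tube the levels were 30.9, 18.4 and 33.4 FPKM for Mrps18a, Mrps18b and Mrps18c, and in pancreas 37.0, 46.3 and 113 FPKM, so Mrps18a and Mrps18c were close in neural tube and far apart in pancreas.

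Large subunit proteins with bacterial homologs made up 30 of the 76 genes, with a median of -0.59 that became 0.00 with equal totals. Of the 30, 1 was at least 2 times higher in neural tube (22.5% of all genes tested) and 9 in pancreas (23.2%). Mrpl33, a small protein whose bacterial homolog lies near the site where transfer RNAs leave, had 46.03 FPKM in neural tube against 154 in pancreas (-1.72). Mrpl13 had 42.3 FPKM in neural tube against 129 in pancreas (-1.59). Mrpl32, which in mouse is cut by a protease of the inner membrane before it joins the ribosome, had 17.8 FPKM in neural tube against 54.2 in pancreas (-1.55). Mrpl47 had 11.8 FPKM in neural tube against 36.5 in pancreas (-1.54), and Mrpl35 had 4.01 in neural tube against 12.3 in pancreas (-1.41). Mrpl30 (-1.21), Mrpl20 (-1.15), Mrpl1 (-1.02) and Mrpl24 (-1.01) completed the 9. Mrpl24 shares 26.3% of its exon bases with Rrnad1 on the opposite strand.

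Mrpl34, a homolog of bacterial L34, stood apart from the other 75 genes. It had 76.4 FPKM in neural tube against 23.7 FPKM in pancreas, a difference of 1.65, and ranked 4 of 76 by level in neural tube and 57 in pancreas. Mrpl4 (39.0 FPKM in neural tube against 23.2 in pancreas, 0.72, but -0.19 after the correction for length and GC given below) and Mrpl2 (57.8 in neural tube against 42.8 in pancreas, 0.42), whose bacterial homologs lie at the exit tunnel and the catalytic centre, came next in this class, and Mrpl28 had 68.4 FPKM in neural tube against 56.6 in pancreas (0.27). The genes listed for the stalk, which recruits translation factors, were each within 2 times. Its main protein Mrpl12 had 83.9 FPKM in neural tube against 106 in pancreas (-0.33), Mrpl10, which anchors it, 24.3 in neural tube against 36.3 in pancreas (-0.56), and Mrpl11, at the stalk base, 13.6 in neural tube against 15.1 in pancreas (-0.14). After the correction for length and GC, Mrpl12 stood at -0.19, Mrpl10 at -0.34 and Mrpl11 at 0.85. Mrpl17, one of the 5 lowest members in both samples, had 6.09 FPKM in neural tube against 9.34 in pancreas (-0.54).

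The 19 mitochondria-specific large subunit proteins had a median of -0.47, which turned to 0.13 with equal totals, with 4 at least 2 times higher in pancreas (23.2% of all genes tested). These were Mrpl42, at 52.6 FPKM in neural tube against 164 in pancreas (-1.63), Mrpl48, at 21.1 in neural tube against 66.7 in pancreas (-1.62), Mrpl50, at 14.2 in neural tube against 40.2 in pancreas (-1.44), and Mrpl40, at 16.6 in neural tube against 35.2 in pancreas (-1.04). Mrpl48 shares 30.4% of its exon bases with D630004N19Rik on the same strand. Neighbours of Mrpl40 and Mrpl48 in the central protuberance, the crest of the large subunit, were not all alike as deposited. Mrpl46 differed by -0.64 and Mrpl38 by 0.07, which became -0.17 and -0.45 after the correction for length and GC. Mrpl43 had 37.5 FPKM in neural tube against 20.9 in pancreas (0.81). Mrpl52, the second most abundant member in neural tube, had 132 FPKM there and 121 in pancreas (0.12). Mrpl44, of the ribonuclease III family, had 12.5 FPKM in neural tube against 21.8 in pancreas (-0.76), and Mrpl45, at the tunnel exit facing the inner membrane, 13.4 in neural tube against 17.0 in pancreas (-0.32). Mrpl53 (0.11) shares 87.1% of its exon bases with Ccdc142 on the same strand.

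Medians by subunit and by origin were close. The median was -0.45 for 26 small subunit genes against -0.55 for 49 large subunit genes, and -0.56 for 46 with bacterial homologs and -0.50 for 29 specific to mitochondria, and all 4 medians were above 0 with equal totals (0.14, 0.04, 0.04 and 0.08). Mrps36, named as a ribosomal protein and now known as a component of the 2-oxoglutarate dehydrogenase complex, had 27.1 FPKM in neural tube against 45.2 in pancreas (-0.72, but 0.73 after the correction for length and GC), and leaving it out gave a median of -0.55 for the other 75. The genes with exons shared with another annotated gene (26) had a median of -0.48, and those without (50) of -0.59.

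The difference ran with the base composition of the transcript. Of the 12 members whose transcript was below 46% GC, 10 were at least 2 times higher in pancreas (median -1.42), against 10 of the 64 others (median -0.46). The same gradient ran through all genes tested that had an annotated transcript, of which 33.9% below 46% GC and 19.1% at or above it were at least 2 times higher in pancreas. Across the 76 genes the difference had a Pearson's r of 0.60 with GC content and -0.15 with log2 transcript length, against 0.27 and 0.28 across 9112 genes tested. The members' transcripts had a median length of 1199 bases and the tested genes' 2772 bases. After the median difference was removed in 20 bins of each property, 69 members were within 2 times (65.3% of all genes tested), 3 were at least 2 times higher in neural tube (16.0%) and 4 in pancreas (18.7%), with a median of -0.17 against 0.02 for all genes. The 3 were Mrpl34, Mrpl43 and Mrps11, and the 4, all among the 20 called as deposited, were Mrpl13, Mrpl35, Mrpl47 and Mrpl48. The rest of the 20 were then within 2 times. Mrps18c then stood at -0.44, Mrpl33 at -0.88, Mrps16 at -0.85, Mrpl42 at -0.18 and Mrpl32 at 0.26. Across the 76 genes the corrected difference still had a Pearson's r of 0.28 with GC content, against 0.0055 across 9112 genes tested. The correction thus did not remove all of the GC trend among the members. Of the 4 still called in pancreas, Mrpl35, Mrpl47 and Mrpl48 were below 46% GC and Mrpl13 was at 51.3%. The transcript used was the one with the longest coding sequence in GENCODE M1, which may not be the one the authors' tool assumed. What part composition, length or library preparation had in the as-deposited differences was not tested.

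**Figure D2:**
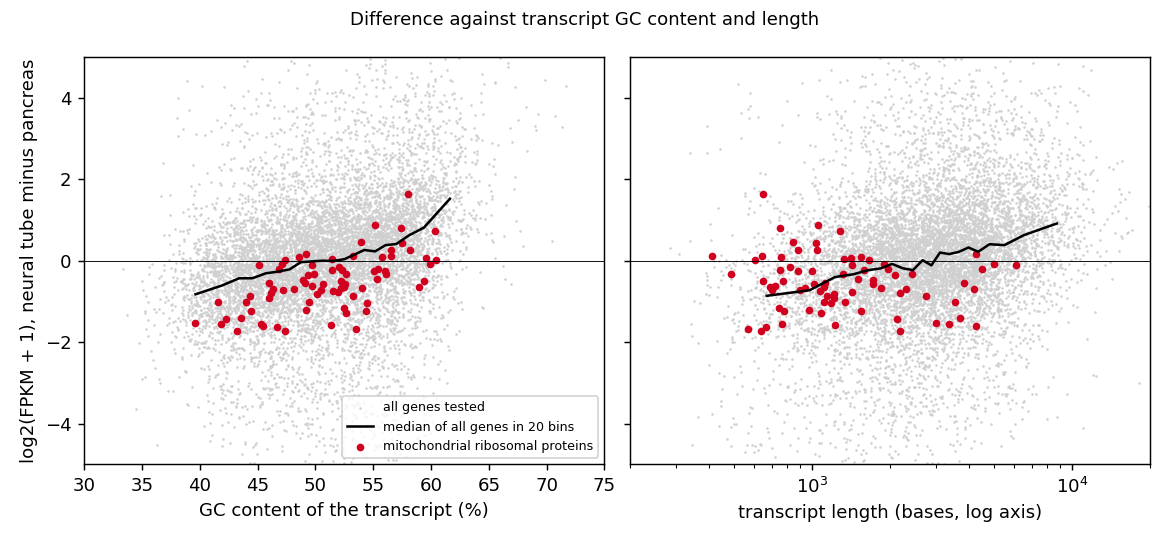
Log2 difference (neural tube minus pancreas) against GC content of the transcript in percent (left) and transcript length in bases on a log axis (right), for 76 mitochondrial ribosomal protein genes (red) and all genes tested (grey, those beyond 5 on the vertical axis not drawn), with the median of all genes in 20 bins as a black line. The members, like all genes, lie lower at low GC, with r of 0.60 across the 76 genes against 0.27 across all genes tested.

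Many of these genes start back to back with a neighbour. By GENCODE M1 on NCBIM37, the build called mm9, 27 of the 76 (35.5%) had a protein-coding neighbour on the opposite strand whose start lay within 1000 bases of their own, against 15.9% of 9111 tested protein-coding genes. In 18 distinct pairs both genes were tested, and in 10 of them (55.6%) the 2 genes differed in the same direction as deposited. Over 535 such pairs of all tested genes the share was 55.3%. In 3 pairs both were at least 2 times higher in pancreas, namely Mrpl32 with the proteasome gene Psma2, Mrpl47 with the complex I gene Ndufb5, and Mrpl30 with Mitd1. In 1 pair the calls were opposite, Mrpl40 with the histone chaperone gene Hira. These counts of called pairs are as deposited and have no share over all tested genes beside them. After the correction for length and GC given above, Mrpl32 stood at 0.26, Ndufb5 at -0.13, Mrpl30 at -0.33 and Mrpl40 at -0.77. All 4 were then within 2 times, while Mrpl47 stood at -1.29.

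The sequences between the starts of 7 pairs are given to show how little DNA separates genes with like or unlike differences. Each is read 5′ to 3′ toward the start of the ribosomal protein gene named last. Capitals mark exact matches, on either strand, to the letters CCGGAAG (an ETS-family core, as bound by GABPA), to the palindromic core of NRF1 or to AAGATGGCG (YY1), factors known for binding promoters of nuclear genes for mitochondria. The first 5 are in NCBIM37 coordinates and the last 2 are from RefSeq on GRCm38.p6.
Helq to Mrps18c, chr5:101227620-101227645, plus strand: gaCTTCCGGcccgggaagcgcgggaa
Ppp1r10 to Mrps18b, chr17:36053335-36053378, minus strand: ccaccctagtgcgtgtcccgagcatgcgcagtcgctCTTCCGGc
Psma2 to Mrpl32, chr13:14705305-14705520, minus strand: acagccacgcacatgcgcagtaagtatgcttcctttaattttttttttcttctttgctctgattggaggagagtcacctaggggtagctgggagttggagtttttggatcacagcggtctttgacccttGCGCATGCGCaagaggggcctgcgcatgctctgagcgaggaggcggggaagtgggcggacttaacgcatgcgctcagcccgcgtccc
Hira to Mrpl40, chr16:18876861-18877129, minus strand: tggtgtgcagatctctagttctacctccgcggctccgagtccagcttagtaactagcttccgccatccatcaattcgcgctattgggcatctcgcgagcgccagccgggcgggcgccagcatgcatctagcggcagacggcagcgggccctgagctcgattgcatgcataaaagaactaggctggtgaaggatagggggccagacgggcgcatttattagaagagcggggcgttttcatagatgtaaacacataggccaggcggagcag
Sars2 to Mrps12, chr7:29526840-29527009, minus strand: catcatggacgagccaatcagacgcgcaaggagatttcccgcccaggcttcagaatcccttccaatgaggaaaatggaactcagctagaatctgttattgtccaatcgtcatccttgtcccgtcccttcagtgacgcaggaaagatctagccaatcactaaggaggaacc
Abhd8 to Mrpl34, chr8:71464708-71464925, plus strand: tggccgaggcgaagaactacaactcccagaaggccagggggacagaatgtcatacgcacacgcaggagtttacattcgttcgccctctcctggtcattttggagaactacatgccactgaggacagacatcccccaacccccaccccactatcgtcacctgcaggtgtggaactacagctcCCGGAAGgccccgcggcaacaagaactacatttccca
Mrpl46 to Mrps11, chr7:78783090-78783130, plus strand: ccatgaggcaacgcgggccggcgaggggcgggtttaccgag

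Beside the short Mrps18c stretch, Helq, a DNA helicase gene, was at 5.04 FPKM in neural tube against 3.73 in pancreas. Its mean was below 5 FPKM, so Helq was not among the genes tested. As deposited, Mrps18c was 3.39 times as high in pancreas, but it was within 2 times after the correction for length and GC (-0.44). Ppp1r10, a phosphatase regulator, was at 25.3 FPKM in neural tube against 13.0 in pancreas (0.91) beside Mrps18b at -1.29. Psma2 was at 89.9 FPKM in neural tube against 229 in pancreas (-1.34) beside Mrpl32 at -1.55, and this stretch holds the NRF1 core. Hira was at 27.8 FPKM in neural tube against 12.5 in pancreas (1.10) beside Mrpl40 at -1.04. Sars2, the mitochondrial seryl-tRNA synthetase, was at 14.8 FPKM in neural tube against 7.47 in pancreas (0.89) beside Mrps12 at 0.26.

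The neighbour of Mrpl34 differed in the same direction. Abhd8, whose RefSeq start is next to that of Mrpl34 although the GENCODE starts lie further apart, was at 39.7 FPKM in neural tube against 5.46 in pancreas (2.66). Mrps11 and Mrpl46 are 2 members that face each other across 41 bases between their RefSeq starts, and as deposited they differed in opposite directions. Mrps11 had 31.3 FPKM in neural tube against 16.6 in pancreas, whereas Mrpl46, a large subunit protein, had 18.4 FPKM in neural tube against 29.2 in pancreas. On other scales Mrpl46 was near 0, at -0.04 with equal totals and -0.17 after the correction for length and GC. Mrps11 stood at 1.48 and 1.32 on the same 2 scales. The annotated exons of the 2 genes share 173 bases on opposite strands, so reads there cannot be assigned without strand.

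**Figure D3:**
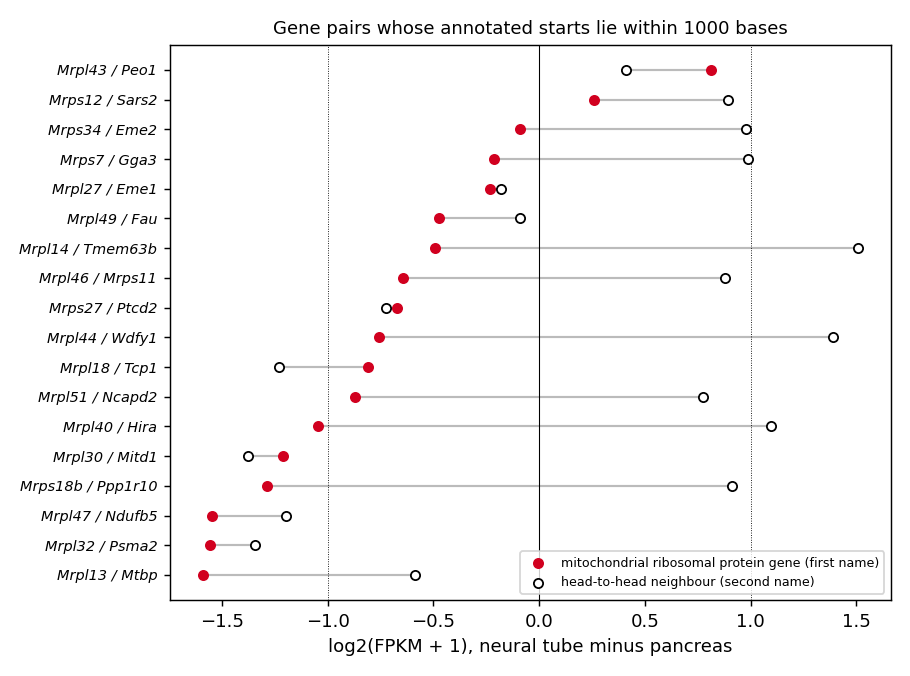
Log2 difference (neural tube minus pancreas) of 18 mitochondrial ribosomal protein genes (red) and of their head-to-head neighbours (open), for pairs with both genes tested, ordered by the ribosomal protein gene. Neighbours such as Hira and Ppp1r10 lie on the other side of 0 from their partner, and Psma2, Ndufb5 and Mitd1 on the same side.

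Of the 76 genes, 67 had a RefSeq promoter window of 300 bases (250 before the start and 50 after). The ETS letters were in 22 of them (32.8%), against 20.01% of 6838 tested genes and 9.14% of all 27025 windows. The YY1 letters were in 8 (11.9%), against 3.66% of tested genes and 1.48% of all windows, and the NRF1 core in 3 (4.48%), against 2.30% and 0.981%. The genes with ETS letters, Mrpl34 and Mrps18c among them, had a median difference of -0.43 and those without of -0.56, so genes at both ends of the range held them. The YY1 group of 8 and the 59 others had medians of -0.56 and -0.56. The letters GGGCGG (SP1) were in 33 members (49.3%), fewer than the 68.0% of tested genes, and TATAAA in 4 (5.97%), against 6.64%. Related lists differed by motif: the YY1 letters were in 15.6% of complex I windows and 5.17% of those of cytosolic ribosomal proteins. In the same order, the ETS letters were in 12.5% and 39.7%, and the NRF1 core in 3.1% and 1.7%. Each of these 2 lists was thus above the members for 1 of these motifs and below them for the others. Both strands were searched, and a match is only a match of letters in this window.

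Other parts of the same machinery did not share one direction as deposited. The counts below stand beside 22.5% of all genes tested higher in neural tube, 23.2% higher in pancreas and 54.2% within 2 times. Of 7 ribosomal subunits without the Mrp name, 1 was at least 2 times higher in neural tube and 3 were so in pancreas (median -0.27, or 0.32 with equal totals). Chchd1, a small subunit protein, had 37.6 FPKM in neural tube against 143 in pancreas (-1.90), Ptcd3 18.6 in neural tube against 40.9 in pancreas (-1.09) and Aurkaip1 26.7 in neural tube against 56.4 in pancreas (-1.05). After the correction for length and GC all 3 were within 2 times, Chchd1 at -0.61, Ptcd3 at -0.51 and Aurkaip1 at -0.91. Mrp63, now called Mrpl57, had 13.8 FPKM in neural tube against 5.02 in pancreas (1.30, and 2.14 after the correction). All 11 mitochondrial translation factors tested were within 2 times, with a median of 0.05 against -0.56 for the ribosomal proteins. The 2 medians were -0.05 and -0.66 with upper quartile scaling, and 0.17 and -0.17 after the correction for length and GC. Among the factors, the elongation factor gene Tufm had 74.9 FPKM in neural tube against 62.1 in pancreas (0.27), and Oxa1l, the insertase that receives the new chains, 32.2 in neural tube against 25.7 in pancreas (0.32). Of 20 assembly and rRNA modification genes tested, 1 was at least 2 times higher in neural tube while 5 were so in pancreas (median -0.36, or 0.21 with equal totals), the helicase gene Dhx30 at 50.0 FPKM in neural tube against 16.8 in pancreas (1.52), with Mterfd2 (-1.51) and Fastkd2 (-1.32) the furthest toward pancreas. After the correction these 3 were within 2 times, at 0.75, -0.94 and -0.92. Of 16 mitochondrial tRNA synthetase genes tested 13 were within 2 times (median -0.26, or 0.30 with equal totals), with Aars2 at 1.49 and Iars2 at -1.09 the extremes as deposited. After the correction for length and GC Aars2 stood at 0.30, below Qrsl1 at 0.55, while Iars2 stood at -1.25.

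Regulators of nuclear genes for mitochondria leaned toward neural tube, with a median of 0.64 for 8 genes tested, which was 1.22 with equal totals and 0.30 after the correction for length and GC. Esrra, an orphan nuclear receptor, had 15.0 FPKM in neural tube against 3.54 in pancreas (1.82, but 0.55 and so within 2 times after the correction). The Myc family genes went opposite ways, Mycn with 44.5 FPKM in neural tube against 2.78 in pancreas (3.59) and Myc with 5.57 in neural tube against 19.3 in pancreas (-1.63). The other 5 were within 2 times, Nrf1 at 0.69, Gabpb1 at 0.68, Pprc1 at 0.59 (-0.44 after the correction), Yy1 at 0.28 and Gabpa at -0.77. Polrmt, the mitochondrial RNA polymerase, was at 12.3 FPKM in neural tube against 4.57 in pancreas (1.25, but -0.57 after the correction for length and GC), and Ssbp1, the mitochondrial single-stranded DNA binding protein, at 20.8 in neural tube against 55.3 in pancreas (-1.37, but 0.22 after it).

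Lists of respiratory chain and ATP synthase genes had medians below the -0.56 of the members as deposited, but not for every list on other scales. The median was -0.78 for 36 complex I subunits tested (15 of them at least 2 times higher in pancreas), -0.62 for 28 genes of complexes II to IV (11) and -1.24 for 15 ATP synthase subunits (10). Over all genes tested 23.2% were at least 2 times higher in pancreas. The list for complexes II to IV includes Sdha to Sdhd of complex II, which has no subunit made by mitochondrial ribosomes, and the name pattern also took in Cox4nb (1.45), which is not a subunit of any of them. Cytosolic ribosomal proteins stood furthest from 0, at -1.31 with 49 of 79 at least 2 times higher in pancreas, and took 15.9% of the neural tube total and 22.4% of the pancreas total. With equal totals these medians became -0.15, 0.00, -0.62 and -0.68, beside 0.04 for the members, and after the correction for length and GC -0.13, -0.10, -0.44 and -0.54, beside -0.17. Cytosolic ribosomal proteins have many near-identical copies, so single values such as that of Rps27 (4.19 FPKM in neural tube against 118 in pancreas) are uncertain. Import and membrane genes had a median of -0.60 (0.01 with equal totals), with the matrix chaperonin genes Hspe1 (-1.71) and Hspd1 (-1.35) lowest, both within 2 times after the correction (-0.72 and -0.72).

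**Figure D4:**
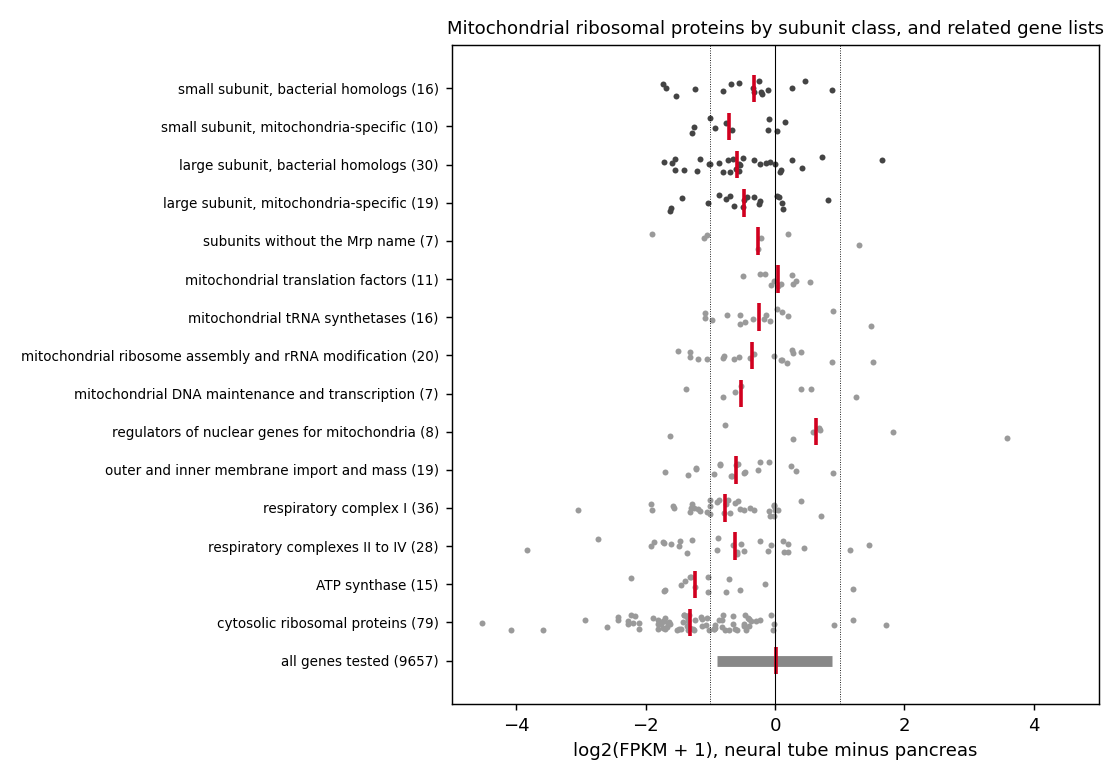
Log2 difference (neural tube minus pancreas) of each tested gene by list, the 4 classes of mitochondrial ribosomal proteins in dark grey and related lists in light grey, with the number tested in brackets, the median in red and dotted lines at 2 times. The grey bar for all genes tested spans the quartiles, from -0.90 to 0.88, and the 4 class medians lie between -0.71 and -0.33 as deposited, 3 of them above 0 with equal totals.

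Ptf1a, whose enhancer defined the sorted cells, was measured at 22.5 FPKM in neural tube against 37.1 in pancreas (-0.69), within 2 times in the 2 samples.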

How the data were processed

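Gene expression in sorted neural tube cells and whole pancreas was deposited as 1 table of FPKM. Per the file headers, there is 1 FPKM column per tissue, taken here as pooled by the authors because the labels name 2 libraries for each. Per the submitters' processing notes, Cuffdiff (version 2.0.2), TopHat2 (version 2.0.4), TopHat and CASAVA were used with mm9, with no role or order given, and the gene annotation is not given in the sources used here. The notes' build is that of the NCBIM37 genome and GENCODE M1, in which 21662 of the 23228 symbols (93.3%) and all 76 members matched 1 gene. The other 16 samples (11 chromatin immunoprecipitation, 2 input, 3 FAIRE) are not analysed here.

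Differences were log2(FPKM + 1) in neural tube minus pancreas. A gene was tested where its 2 values averaged at least 5 FPKM, which all 76 members did, and called at a difference of 2 times, a rule of size with no replicate check. Promoter windows and some start positions are from RefSeq on GRCm38.p6. Where a gene had several windows the most upstream was used. Depth was estimated from the commonest small increment of FPKM multiplied by transcript length, by which a single fragment per kb was worth 0.0424 FPKM (neural tube) or 0.0233 FPKM (pancreas). These are approximate, and no interval per gene is given. The measure was run on simulated data whose planted changes were larger than the threshold of 2 times, so that run gives no error rate for these data. Python 3.11.15, numpy 2.4.6 and pandas 2.3.3 were used.

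The members, gene lists and rules were chosen with earlier results of these data known. Genes named were the 10 members furthest in each direction, the 5 highest and 5 lowest in each sample, listed members (the stalk, the S18 paralogs, Mrpl44, Mrpl45, Mrps7, Mrps12, Mrps16, Mrps22 and Mrps36), Ptf1a, and the 2 furthest in each direction of each other list, of which only some are described. The other members named, the neighbours, the split at 46% GC and the sequences were chosen after their values were seen.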

Additional observations from a re-analysis of the deposited data

How the results depend on the processing

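Counts of members higher in neural tube and in pancreas were 1 and 20 as deposited. They were 6 and 5 with equal totals, 4 and 11 with equal totals without the 50 highest genes of each sample, and 3 and 4 after the correction for length and GC. A threshold of 1.5 times gave 4 and 36, with 36 within it, and a threshold of 4 times gave 0 and 0. With a pseudocount of 5 FPKM the count higher in pancreas was 14. Pseudocounts of 0.1 and 5 FPKM, no filter, a minimum mean of 10 FPKM, the median ratio and the upper quartile kept the other counts within 1.5 times. The members' median, -0.56, ranged from -0.66 to -0.17 under every alternative except equal totals, where it was 0.0398. With equal totals the medians of large subunit proteins with bacterial homologs, mitochondria-specific large subunit proteins and small subunit proteins with bacterial homologs became 0.0047, 0.13 and 0.28, and the last was 0.0213 without the 50 highest genes. FPKM summed to 455927 in neural tube against 704172 in pancreas, which by construction sets the shift with equal totals. Among genes past 2 times that the naming rule gave, only Mrpl32 (0.26), Polrmt (-0.57) and Ssbp1 (0.22) changed sign, all after the correction for length and GC, as did Mrps33 (0.29), named after its value was seen. The cause was not tested. No paired analysis was possible because each tissue had 1 pooled column. With no counts deposited, the fragments behind each value are estimates.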
